A study of Mus musculus with 5 samples.

Results

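This account follows 9 genes of the homeostatic microglial surface programme (P2ry12, P2ry13, Gpr34, Cx3cr1, Csf1r, Siglech, Selplg, Tmem119 and Olfml3) in single-nucleus RNA sequencing of the mouse brain. The genes were given by name, as 9 of the 32285 genes in the files, and their levels were read in 5377 nuclei that resembled microglia, out of 9748 deposited nuclei. The comparison was between 2 mice with the genotype Tmem119-creERT2-cGaswt/R241E (R241E) and 3 mice with the genotype Tmem119-creERT2-cGaswt/wt (WT), with 1 library from each mouse. All 5 mice carried the Tmem119-creERT2 driver, which the study describes as acting mainly in microglia and in macrophages of the brain, and the study's methods state that tamoxifen was given to young adult mice to switch the allele on. Exon 2 of the allele lies between lox sites and is turned round by Cre. The driver sits at the locus of Tmem119, itself a gene of the list, and how many copies each mouse had is not given in the sources used here. The control genotype is given in 2 ways: the study's results speak of mice with the R241E allele, its methods and the sample titles of wild-type Cgas. The titles were followed. The labels give hippocampus as the tissue and the methods brain. Nuclei positive for the DNA dye DAPI and negative for NeuN and Olig2, nuclear proteins of neurons and of oligodendrocyte-lineage cells, had been sorted. Values below are UMI counts (counts of tagged RNA molecules) or CPM, the UMIs of a gene per 1000000 UMIs of the summed nuclei of a class in a library. Replicates here are mice.

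Microglia are the resident macrophages of the brain parenchyma. In the undisturbed brain they carry a set of receptors that is sparse in neurons and other glia, and transcripts of this set are known to fall when microglia respond to damage, plaques or interferon. Some of these receptors are shared with other macrophages and with lymphocytes, as the values below show. P2RY12 and P2RY13 are receptors for ADP, the nucleotide that draws microglial processes to injured cells, and GPR34 is a receptor for lysophosphatidylserine. CX3CR1 binds fractalkine, a chemokine of neurons, and CSF1R binds CSF1 and IL-34, on which microglia depend for survival. Siglec-H belongs to the Siglecs, a family named for sialic acid-binding lectins, and signals through the adapter DAP12 (encoded by Tyrobp). PSGL-1 (encoded by Selplg) is a ligand of selectins. TMEM119 is a membrane protein used to tell microglia from other macrophages. OLFML3 is a secreted protein, so the list is not made of surface proteins throughout. cGAS, the enzyme changed by R241E, senses DNA and signals through STING to type I interferon.

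By position, the genes fall into 2 neighbouring pairs and single loci. On build GRCm38, P2ry12 (chromosome 3, 59216271 to 59262985, ENSMUSG00000036353) and P2ry13 (chromosome 3, 59207892 to 59210882, ENSMUSG00000036362) lie next to each other on the minus strand, both inside Med12l, a gene of the plus strand. Tmem119 (chromosome 5, 113793729 to 113800396, ENSMUSG00000054675) and Selplg (chromosome 5, 113817798 to 113832528, ENSMUSG00000048163) lie 17401 bases apart on the minus strand. Gpr34 (chromosome X, 13622650 to 13640859, ENSMUSG00000040229) lies on the plus strand inside Cask, a gene of the minus strand. Cx3cr1 is on chromosome 9 (120048683 to 120068296, ENSMUSG00000052336), where it overlaps the long non-coding RNA Gm33858, Siglech on chromosome 7 (55768154 to 55779448, ENSMUSG00000051504) and Olfml3 on chromosome 3 (103735394 to 103738001, ENSMUSG00000027848). Csf1r has the identifier ENSMUSG00000024621. All 9 are protein coding. How strand and intronic reads were handled in counting is not given in the sources used here, so reads of P2ry12, P2ry13 and Gpr34 cannot be told apart here from antisense reads of their host genes, and values of Med12l and Cask are given beside theirs.

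RefSeq's promoter table for GRCm38.p6 held 5 of the 9 genes (P2ry12, P2ry13, Cx3cr1, Siglech and Olfml3). The 250 bases before the start site of that table are shown for Siglech, because it was lower in R241E by the widest margin, and for the neighbours P2ry12 and P2ry13, in which a motif was found. Capitals mark the motifs GAGGAAG and AGGAAGT, cores of the kind bound by ETS factors such as PU.1, searched on both strands. The motifs share the letters AGGAAG, so a sequence may match both.
Siglech, chr7:55767934-55768183, plus strand: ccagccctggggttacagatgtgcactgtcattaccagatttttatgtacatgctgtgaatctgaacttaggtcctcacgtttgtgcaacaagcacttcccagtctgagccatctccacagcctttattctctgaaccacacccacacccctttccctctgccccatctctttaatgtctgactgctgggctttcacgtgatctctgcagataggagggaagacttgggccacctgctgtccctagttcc
P2ry12, chr3:59262986-59263235, minus strand: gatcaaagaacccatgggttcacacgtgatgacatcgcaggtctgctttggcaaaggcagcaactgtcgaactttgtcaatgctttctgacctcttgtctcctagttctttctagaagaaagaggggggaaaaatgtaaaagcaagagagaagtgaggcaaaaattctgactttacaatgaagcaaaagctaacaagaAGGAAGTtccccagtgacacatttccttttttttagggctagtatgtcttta
P2ry13, chr3:59210883-59211132, minus strand: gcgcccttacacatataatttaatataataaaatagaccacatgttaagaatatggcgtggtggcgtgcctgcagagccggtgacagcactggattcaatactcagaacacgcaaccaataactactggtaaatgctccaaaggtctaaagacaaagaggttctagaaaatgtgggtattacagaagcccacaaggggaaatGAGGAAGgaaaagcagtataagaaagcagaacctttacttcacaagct
For Siglech the start site of the promoter table lies downstream of the gene start given above, so the end of its window falls inside the gene as annotated. The P2ry12 motif began 52 bases before the start site and the P2ry13 motif 48 bases before it. AGGAAGT occurred in 7.69% of the 32851 windows of this length in the table and GAGGAAG in 10.6%. The core of the interferon-stimulated response element (GAAA, a spacer of any 2 bases, GAAA) occurred in 2.98% of the windows and in none of the 5 matched here. Siglech, Cx3cr1 and Olfml3 held none of the motifs in this window. A match is a run of letters and was not tested as a binding site.

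The nuclei in which the genes were read were named from other markers (Sall1, Slco2b1, C1qa, C1qb and C1qc among them), and the 9 genes took no part in the clustering or in the naming. Of the microglia, 1006 and 524 came from R241E replicates 1 and 2, and 926, 1471 and 1450 came from WT replicates 1 to 3. Their UMIs summed to 1445844 to 4336727 per library. The median microglial nucleus held 2061 to 3056 UMIs. Pairs of replicates were further apart than counting alone would put them (2.18 to 4.02 chi-square units for each degree of freedom), and 13 barcodes occurred in more than 1 library. The microglia fell into 5 clusters with different makeup in the genotypes. Cluster 1 held 57.6% and 42.4% of the microglia of the R241E libraries and 2.81% to 5.45% of those of the WT libraries, while clusters 2 and 3 together held most WT microglia (cluster 2, 40.6% to 77.2%, and cluster 3, 19.1% to 50.3%). Cluster 9, led by C1qb, C1qc and Ctss, held 11.8% and 20.8% in R241E and 0.432% to 3.24% in WT, and cluster 15, led by Ifi204 and Epsti1, held 22.5% and 17.6% in R241E and 0.34% to 0.432% in WT. The markers of monocytes and neutrophils include Csf3r, which stood among the leading genes of cluster 1, but in each of the 5 clusters 66.1% to 81.9% of the nuclei had a UMI of it.

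All 9 genes were highest in microglia among the 11 named classes of nuclei. With the values of each library taken separately, and libraries with under 10 nuclei of a class left out, the microglia lay above every other class for 8 of the 9 genes. The exception was P2ry13, with 58.1 to 84.1 CPM in microglia and 14.7 to 76.4 CPM in the nuclei resembling monocytes or neutrophils, the latter from 11 UMIs in all. These differences are a description of the classes and were not tested. Tmem119 had the steepest drop to the second class, with 123 ± 22.9 CPM (SD, n = 5) in microglia and 19.5 ± 12.6 CPM (n = 5) in monocytes or neutrophils. Csf1r had the shallowest, with 1056 ± 47.9 CPM in microglia and 804 ± 143 CPM in border-associated macrophages, the macrophages of the meninges and vessels, which overlapped with monocytes or neutrophils at 537 ± 199 CPM. Selplg stood second in lymphocytes, at 530.3 ± 63.4 CPM (n = 3 libraries with 10 or more nuclei) against 898 ± 71.7 CPM in microglia, and none of these 3 overlapped with the third class. The 7 lymphocyte nuclei of WT replicate 2, below that limit, held 965 CPM of Selplg from 12 UMIs, above its microglia. Border-associated macrophages were second for P2ry12 (603 ± 64.4 CPM against 1295 ± 91.9 CPM in microglia), Gpr34 (214 ± 30.8 against 831 ± 150.4 CPM) and Siglech (336 ± 99.8 against 1277 ± 194 CPM). For Gpr34, Siglech and Cx3cr1 the ranges of these macrophages and of monocytes or neutrophils overlapped, so their order was not settled. Olfml3 was second in fibroblasts, at 25.7 ± 11.5 CPM against 106 ± 17.7 CPM in microglia.

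**Figure D1:**
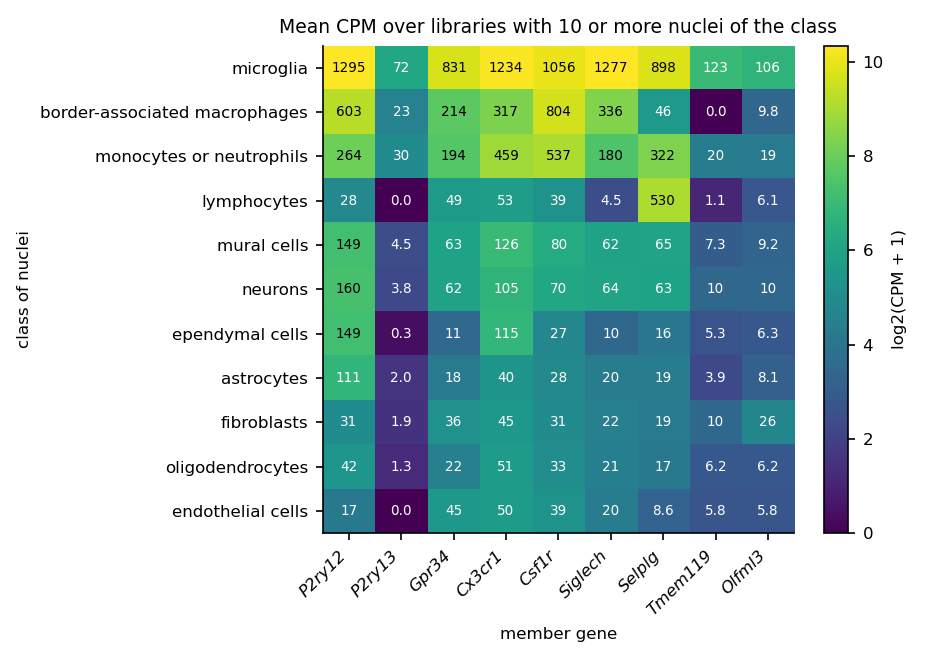
Mean level of each of the 9 genes in the 11 named classes of nuclei, as CPM averaged over the libraries with 10 or more nuclei of the class (printed in the cells, colour on the scale of log2(CPM + 1)). The row of microglia holds the highest value of every column, and the Tmem119 cell of border-associated macrophages is at 0.

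Tmem119 separated the macrophages of the brain's borders from microglia most sharply. Not a single Tmem119 UMI was counted among the 343 border-associated macrophage nuclei, although they held 560 UMIs of P2ry12, 734 of Csf1r and 314 of Siglech. A count of 0 allows up to 3.19 CPM (3 UMIs over all macrophages), against 117 CPM in the pooled microglia. In microglia 1731 UMIs of Tmem119 accompanied 19413 of P2ry12, a ratio that would give 49.9 Tmem119 UMIs beside the P2ry12 UMIs of the macrophages. Neurons, which should lack these transcripts, had 5.76 Tmem119 UMIs per 100 P2ry12 UMIs (95% interval 3.79 to 8.43, counting error only). Selplg was also sparse in the macrophages, with 8.39 UMIs per 100 of P2ry12 (6.09 to 11.3) and 45.7 ± 24.4 CPM.

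P2ry12 was nearest to its microglial level, among the 9 genes, in neurons, ependymal cells, mural cells and astrocytes (microglia over class 8.07, 8.67, 8.71 and 11.6). It stood at 160.4 ± 41.9 CPM in neurons, 149 ± 25.9 CPM in ependymal cells and 111 ± 20.5 CPM in astrocytes, where Siglech was at 64.5 ± 57.4, 10.4 ± 16.2 and 19.5 ± 16.1 CPM. In astrocytes, 47 UMIs of Siglech accompanied 263 of P2ry12, where the ratio of microglia would give 261. Its host gene Med12l was counted in the same classes at 211 ± 40, 176 ± 35.7 and 153 ± 17.5 CPM. The part of Med12l reads in these P2ry12 values was not tested.

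To ask whether the R241E allele changed the homeostatic programme, the summed counts of microglia were compared between the genotypes. Siglech and Gpr34 fell in R241E microglia, by 25.8% and 25.1%, and none of the 9 genes rose past the threshold. Of the 9, 2 were called lower and 0 higher (edgeR quasi-likelihood test, adjusted p under 0.05), where 9.31% of the 12723 genes tested were called in either direction, 3.24% lower and 6.08% higher. The log2 fold change was below 0 for 6 of the 9 and its median was −0.12, against −0.0041 over all genes tested. CPM did not overlap between the genotypes for 5 of the 9, 4 of them lower in R241E, where 38.0% of all genes tested did not overlap and 17.7% were lower in R241E. Summed over the 9 genes, R241E microglia held 6122 and 6787 CPM and WT microglia 7022, 7174 and 7353 CPM, so that both R241E libraries lay below the WT libraries.

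Siglech, the gene of the Siglec family, was the member with the clearest difference. The R241E libraries held 1031 and 1101 CPM, against 1407, 1423 and 1422 CPM in WT, from 1592 to 6170 UMIs each. Both R241E libraries were far below the 3 WT libraries, which lay close together (SD 8.97 CPM). The log2 fold change was −0.43 (SE 0.09, 95% interval −0.61 to −0.24, edgeR adjusted p = 0.00419), that is, a fold of 0.742. Without R241E replicate 1 the value was −0.39 and the call was lost (edgeR adjusted p = 0.102).

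Gpr34, the lysophosphatidylserine receptor, fell by a similar size with more spread. It stood at 636 and 761 CPM in R241E, against 862, 851 and 1046 CPM in WT. The genotypes did not overlap, but the gap between them was narrower than the range within either genotype. The log2 fold change was −0.42 (SE 0.11, 95% interval −0.65 to −0.19, edgeR adjusted p = 0.0227), and it was −0.30 and no longer called without R241E replicate 1 (edgeR adjusted p = 0.318). The host gene Cask, read from the other strand, stood at 569 and 602 CPM in R241E, against 725, 738 and 646 CPM in WT (log2 fold change −0.28, SE 0.10, edgeR adjusted p = 0.0911). The part of Cask reads in the Gpr34 difference was not tested.

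The ADP receptors lay lower in R241E without passing the threshold. P2ry12 was at 1259 and 1152 CPM in R241E, against 1370, 1370 and 1326 CPM in WT (log2 fold change −0.19, 95% interval −0.38 to 0.01, edgeR adjusted p = 0.256). P2ry13 was at 58.1 and 69.2 CPM in R241E, against 74.0, 76.8 and 84.1 CPM in WT (log2 fold change −0.34, 95% interval −0.62 to −0.07, edgeR adjusted p = 0.131). Neither gene overlapped between the genotypes. Med12l, which contains both, was at 868 and 815 CPM in R241E, against 1069, 971 and 899.6 CPM in WT (log2 fold change −0.24, edgeR adjusted p = 0.182).

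The receptors for fractalkine and CSF1, and the selectin ligand, overlapped between the genotypes. Cx3cr1 was at 1082 and 1289 CPM in R241E, against 1227, 1290 and 1282 CPM in WT (log2 fold change −0.12, 95% interval −0.32 to 0.09, edgeR adjusted p = 0.562). Csf1r was at 1026 and 1130 CPM in R241E, against 1026, 1018 and 1077 CPM in WT (log2 fold change 0.03, 95% interval −0.15 to 0.22, edgeR adjusted p = 0.893). Selplg was at 803 and 989.7 CPM in R241E, against 862, 941 and 892 CPM in WT (log2 fold change −0.03, 95% interval −0.24 to 0.19, edgeR adjusted p = 0.927). For each of these, R241E replicate 1 was the lower R241E library.

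Tmem119 and Olfml3 had higher means in R241E without passing the threshold. Tmem119 was at 123 and 162 CPM in R241E, against 111, 104 and 115 CPM in WT (log2 fold change 0.34, 95% interval 0.08 to 0.59, edgeR adjusted p = 0.109). Olfml3 was at 104 and 132 CPM in R241E, against 82.9, 101 and 109 CPM in WT (log2 fold change 0.22, 95% interval −0.07 to 0.51, edgeR adjusted p = 0.405). Tmem119 did not overlap between the genotypes and Olfml3 did. Without R241E replicate 1 Tmem119 was called higher (0.54, edgeR adjusted p = 0.049) and without R241E replicate 2 it was at 0.15. The creERT2 driver sits at the Tmem119 locus in all 5 mice, so these counts are not those of an unmodified locus.

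**Figure D2:**
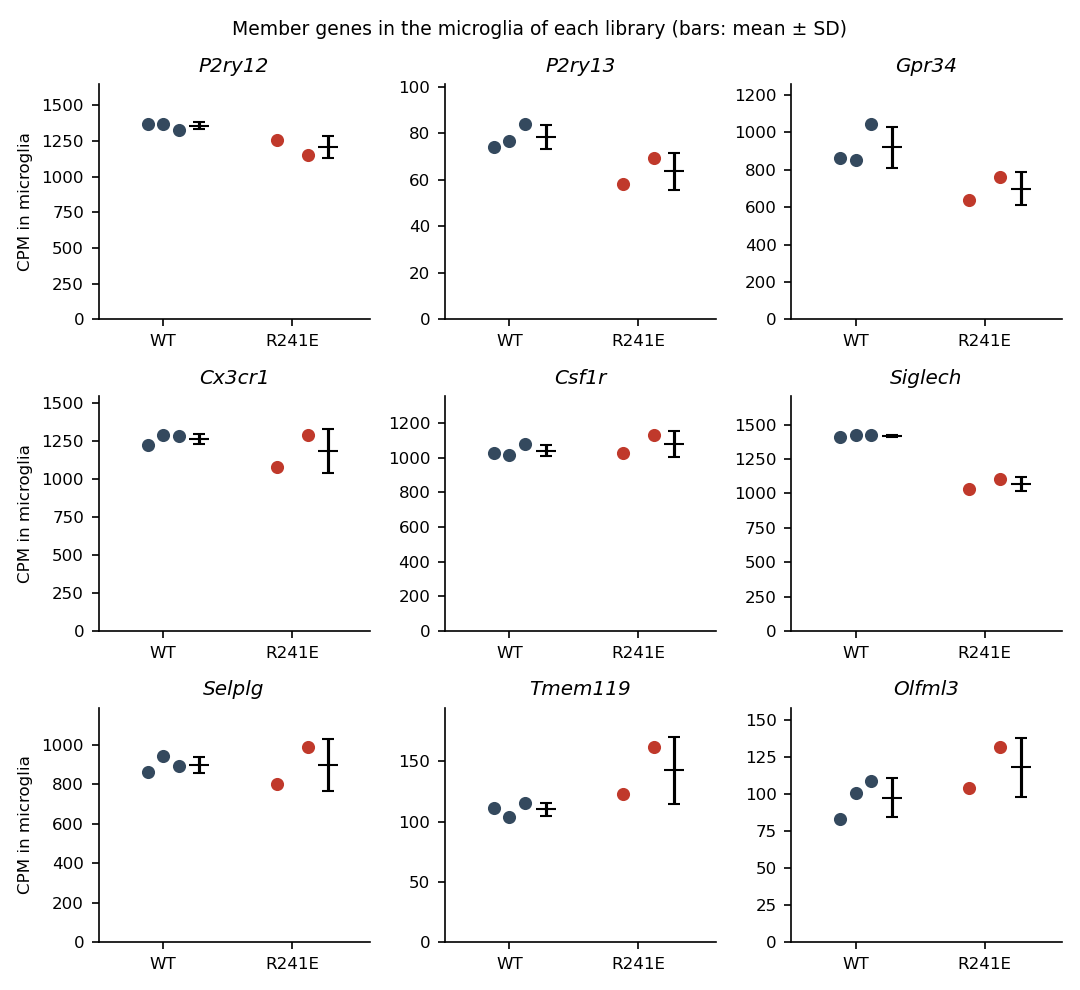
CPM of each of the 9 genes in the microglia of the 3 WT and 2 R241E libraries, 1 point per library, with the mean ± SD beside the points and axes that start at 0. Siglech and Gpr34 are lower in both R241E libraries than in all WT libraries, and Tmem119 is higher in both.

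Other measures moved with the genotype in the same sums. Ribosomal protein genes (80 genes) took 0.669% and 0.836% of the UMIs of R241E microglia and 0.346% to 0.532% in WT, and Malat1, a nuclear RNA, took 3.74% and 3.79% in R241E and 4.06% to 4.70% in WT. The 6 oligodendrocyte markers, all detected in every library, summed to 210.4 and 299 CPM in R241E and 121 to 142 CPM in WT, while the 9 neuron markers, also all detected, summed to 148 and 149 CPM in R241E and 134 to 149 CPM in WT. The 8 markers of border-associated macrophages summed to 98.3 and 143 CPM in R241E and to 211 CPM or more in WT. Of that list, 6 to 8 markers had a UMI in each library, and nearly all of its level was Stab1, a gene that microglia also express (88.3 and 134 CPM in R241E, 191 to 227 CPM in WT), with Mrc1 at 1.26 and 4.84 CPM in R241E and 7.51 to 16.6 CPM in WT. Ms4a7 ran the other way, at 5.65 and 2.07 CPM in R241E and 0.922 to 1.8 CPM in WT. F13a1, Pf4 and Cbr2 overlapped between the genotypes, and Lyve1 was lower in R241E, from at most 5 UMIs in a library. Cd163 had no UMI in 3 of the 5 libraries. The 7 markers of monocytes and neutrophils summed to 738 and 641 CPM in R241E and 559 to 577 CPM in WT, with 5 to 7 detected. This sum includes Csf3r, which most nuclei of every microglial cluster held, so it is not a measure of monocytes or neutrophils alone. The remaining lists summed to at most 48.1 CPM in any library, apart from the 7 astrocyte markers at 273 to 345 CPM. The part of these differences in the results for the 9 genes was not tested.

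For Siglech and Gpr34, the share of nuclei with a UMI at a fixed depth ordered the genotypes as CPM did. After each nucleus had been thinned to 1000 UMIs, which left out 9 to 64 nuclei per library, a Siglech UMI was found in 56.3% and 62.9% of R241E microglia, against 70.4%, 68.9% and 68.4% of WT microglia, and in 0.935% to 5.05% of neurons, whose median depth before thinning was 2663 to 5332 UMIs. For Gpr34 the shares were 41.5% and 50.9% in R241E, 59.9%, 54.5% and 61.8% in WT, and 0.935% to 8.16% in neurons. The difference between the means was −9.65 percentage points for Siglech and −12.5 points for Gpr34. Each had an exact two-sided permutation p of 0.2, and no gene was below it. This is the smallest p that the two-sided form of the test used here can give with 2 against 3 libraries. P2ry12, P2ry13 and Cx3cr1 were likewise lower in both R241E libraries than in all WT libraries (differences of −2.61, −2.1 and −5.21 points), and Olfml3 was higher (1.1 points). In CPM, Cx3cr1 and Olfml3 had overlapped. These shares were computed for the 9 genes only, so how many of all genes fail to overlap in them is not given. For CPM, 38.0% of all genes tested did not overlap between the genotypes, and 17.7% of all were lower in R241E without overlap. For Tmem119 the shares overlapped, with 10.6% and 13.2% in R241E against 12.3%, 10.2% and 9.96% in WT (difference 1.1 points, exact permutation p = 0.4). Without thinning the difference was −3.46 points for Siglech, −6.24 points for Gpr34 and 5.79 points for Tmem119. The median microglial nucleus showed 4 of the 9 genes in every library, and 4 or more of them were seen in 55.2% and 65.5% of R241E microglia and in 72.8%, 68.1% and 67.8% of WT microglia. At this depth a nucleus without a UMI is not shown to lack the transcript.

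Within the clusters of microglia, Siglech was lower in R241E in each cluster, while Tmem119 ran in both directions. These are values of pooled nuclei with Poisson intervals, which cover counting error only, and they carry no test, since the clusters were drawn from the same nuclei. Siglech stood at 1088 CPM in R241E (1046 to 1130) and 1473 CPM in WT (1372 to 1579) in cluster 1, and at 1103 CPM (994 to 1221) and 1416 CPM (1377 to 1455) in cluster 3. In cluster 3, with 64 to 730 nuclei per library, the R241E libraries held 1093 and 1115 CPM and the WT libraries 1446, 1417 and 1407 CPM. Siglech was also lower in R241E in clusters 2, 9 and 15, where the smaller group had 49, 70 and 14 nuclei, with overlapping intervals in cluster 15.

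Gpr34 differed widely between clusters, and between the genotypes in some of them. It was lowest in cluster 15, the cluster led by Ifi204, at 493 CPM in R241E (452 to 536) and 544 CPM in WT (323 to 860.2). In cluster 1 it was at 676 CPM in R241E (644 to 710.0) and 813 CPM in WT (738 to 893). In cluster 2, which held most of the WT microglia in 2 of the 3 WT libraries, it was higher in R241E, at 1009 CPM (827 to 1219) against 899.5 CPM (875 to 924), and in cluster 3 it was at 908 CPM (809 to 1015) and 949 CPM (917 to 981), with overlapping intervals in both. In cluster 9 the R241E value of 803 CPM (736 to 873) lay below the WT value of 1196 CPM (1058 to 1347).

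Tmem119 and Olfml3 were high in cluster 9, the cluster led by C1qb, in both genotypes. Tmem119 stood there at 312 CPM in R241E (272 to 358) and 368 CPM in WT (293 to 456), and in no other cluster above 120.4 CPM. In cluster 1, which held the most R241E microglia, Tmem119 was at 114 CPM in R241E (101 to 128) and 93.7 CPM in WT (69.5 to 124), and in cluster 15 at 91.7 and 90.7 CPM. It was lower in R241E in clusters 2 and 3 (56.6 against 93.3 CPM and 101 against 120.4 CPM), and in all of these clusters the intervals overlapped. Olfml3 stood there at 284 CPM in R241E (245 to 327) and 372 CPM in WT (297 to 461), and at 60.5 to 123 CPM elsewhere. Cx3cr1, Csf1r and Selplg were also highest in cluster 9, at 1649, 1601 and 1242 CPM in R241E and 2042, 1790 and 1391 CPM in WT. So were P2ry12 and Siglech, at 1288 and 1155 CPM in R241E and 1626 and 1515 CPM in WT. The Siglech intervals overlapped there with those of other clusters in both genotypes. Gpr34 was highest in cluster 9 in WT (1196 CPM) but not in R241E (803 CPM). P2ry13 reached 252 CPM (191 to 327) in the 70 WT nuclei of cluster 9 and 93.3 CPM (71.7 to 119) in the 228 R241E nuclei. Cluster 9 held a larger share of R241E microglia, as given above. With cluster 9 left out of the sums, a choice made after these values were seen, the log2 fold change of Tmem119 was 0.03 (edgeR adjusted p = 0.943), and those of Olfml3 and Csf1r turned to −0.15 and −0.08. Siglech and Gpr34 were each at −0.45 without cluster 9 and stayed called (edgeR adjusted p = 0.00212 and 0.00932).

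**Figure D3:**
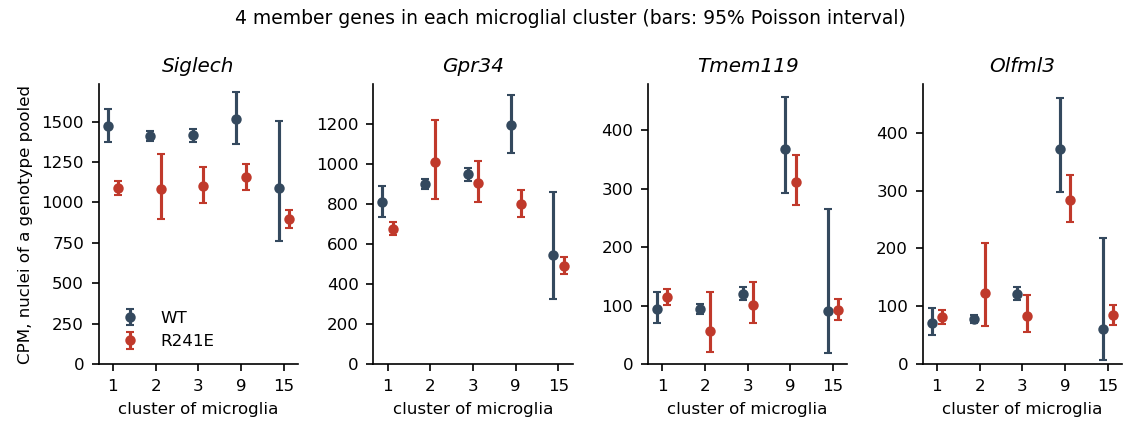
CPM of Siglech, Gpr34, Tmem119 and Olfml3 in the 5 microglial clusters, nuclei of a genotype pooled, with 95% Poisson intervals as bars. Siglech is lower in R241E in each cluster, and Tmem119 and Olfml3 stand apart in cluster 9 in both genotypes.

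The nuclei were next divided by the UMIs of 3 interferon-induced genes, Ifi204, Oasl2 and Usp18, added together. The first is a gene of the IFI200 family of DNA-binding proteins, the second resembles the oligoadenylate synthetases, and the third encodes a protease that removes ISG15 and dampens interferon signalling. No UMI of the 3 was found in 33.6% and 47.3% of R241E microglia and in 94.8% to 95.6% of WT microglia. There were 304 and 116 R241E nuclei with 3 or more UMIs, and 8 in each WT library, which were left out because sums of under 10 nuclei were not used. The estimate of 3 or more against 0 therefore rested on the R241E libraries, each compared with itself. Its spread came from a joint fit that also held the sums of 0 and of 1 to 2 from all libraries. The p-values of this contrast thus rest in part on the spread of those other sums. Depth rose along this division. In R241E replicate 1 the median nucleus held 2568 UMIs with 0, 2852 with 1 to 2 and 3510 with 3 or more, and in replicate 2 it held 2081, 2639 and 3316. A deeper nucleus is more likely to reach 3 UMIs of any gene.

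Gpr34 fell as the interferon UMIs of a nucleus increased, and it was the member called in this contrast. In R241E replicate 1 it went from 691 CPM in nuclei with 0 to 672 CPM with 1 to 2 and 554 CPM with 3 or more, and in replicate 2 from 874 to 759 and 604 CPM. Both libraries moved the same way, and the steps from 1 to 2 up to 3 or more were the larger ones. The log2 fold change of 3 or more against 0 was −0.38 (SE 0.09, 95% interval −0.56 to −0.20, edgeR adjusted p = 0.00209), with 1 of 9 members called lower where 3.32% of 10075 genes were called, 0.615% lower and 2.70% higher. Without R241E replicate 2 it was −0.29 and not called (edgeR adjusted p = 0.629). Among nuclei of 2000 to 4000 UMIs only, which narrows the depth, it was −0.46 (edgeR adjusted p = 0.0178), and after thinning to 1000 UMIs it was −0.65 and not called (edgeR adjusted p = 0.107). Here and below, thinning also redrew the groups, because the interferon UMIs were counted again in the thinned nuclei. The R241E nuclei with 3 or more then numbered 98 and 39, and those with 0 numbered 576 and 331. At full depth Cask moved by −0.24 (edgeR adjusted p = 0.213). The 24 WT nuclei with 3 or more, pooled, held 601 CPM of Gpr34 (435 to 809, from 43 UMIs), with no test.

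Csf1r, Selplg, Cx3cr1 and Siglech had log2 fold changes below 0 that were not called at full depth. Csf1r went from 1073 to 957 CPM in R241E replicate 1 and from 1235 to 971 CPM in replicate 2 between 0 and 3 or more (log2 fold change −0.21, 95% interval −0.37 to −0.05, edgeR adjusted p = 0.176). Selplg went from 873 to 708 CPM and from 1060 to 930.2 CPM (−0.22, −0.39 to −0.06, edgeR adjusted p = 0.168), and Cx3cr1 from 1139 to 1043 CPM and from 1410 to 1160 CPM (−0.18, −0.33 to −0.02, edgeR adjusted p = 0.323). Siglech, the gene with the clearest genotype difference, went from 1126 to 958 CPM and from 1153 to 1026 CPM (−0.15, −0.31 to 0.01, edgeR adjusted p = 0.495). All 4 were lower with 3 or more in both libraries. Among nuclei of 2000 to 4000 UMIs, Siglech (−0.44, edgeR adjusted p = 0.00699) and Csf1r (−0.40, edgeR adjusted p = 0.0235) were called lower together with Gpr34. The share of all genes called lower in that window is not given here. After thinning to 1000 UMIs, with the groups redrawn, Cx3cr1 was at −0.73 and called lower (edgeR adjusted p = 0.0132), and Csf1r was at −0.57 and not called (edgeR adjusted p = 0.117). Which member was called thus differed with how depth was handled and, after thinning, with the nuclei in each group.

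The ADP receptors and Tmem119 showed no common direction. P2ry12 was at 1276 CPM with 0 and 1296 CPM with 3 or more in R241E replicate 1 and at 1216 and 1117 CPM in replicate 2, with a log2 fold change of 0.0041 (95% interval −0.15 to 0.16) that took the other sign under several settings. P2ry13 was at 62.9 and 54.0 CPM and at 63.8 and 95.9 CPM, the last from 40 UMIs (0.18, −0.27 to 0.63). Tmem119 was at 136 and 121 CPM and at 153 and 168 CPM (0.01, −0.32 to 0.33). Olfml3 was at 93.8 and 92.9 CPM in replicate 1 and at 175 and 105 CPM in replicate 2 (−0.41, −0.77 to −0.04, edgeR adjusted p = 0.339), so its value rested on replicate 2.

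**Figure D4:**
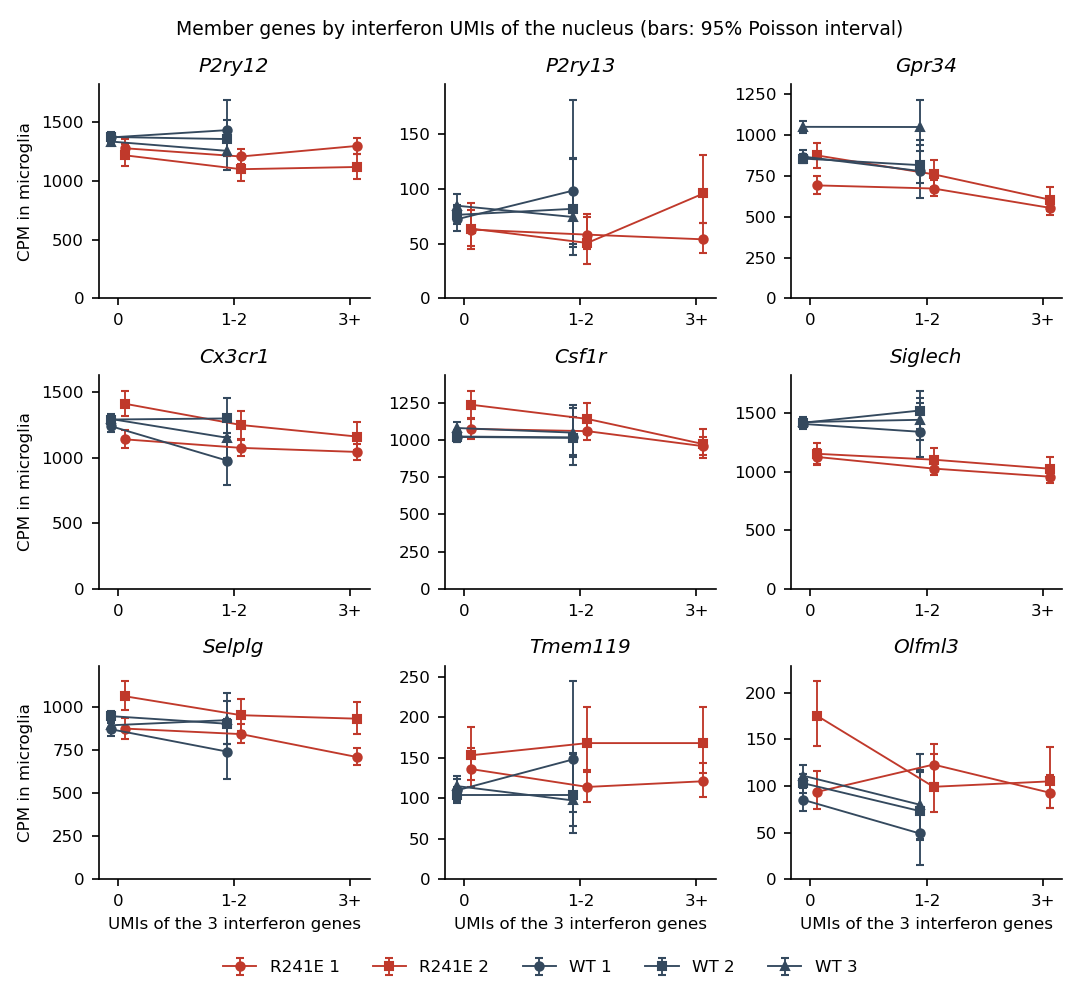
CPM of each of the 9 genes in microglia with 0, 1 to 2 and 3 or more UMIs of Ifi204, Oasl2 and Usp18, a line per library (red R241E, dark WT) and 95% Poisson intervals as bars, for sums of 10 or more nuclei. The Gpr34 lines of both R241E libraries reach their lowest point at 3 or more, and the Siglech lines of R241E lie below the WT lines already at 0.

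Between 1 to 2 and 0, where all 5 libraries entered, none of the 9 genes was called in edgeR (0.288% of 10075 genes were, 0.278% higher and 0.00993% lower). The log2 fold changes were all below 0 and ran from −0.26 for Olfml3 to −0.04 for Siglech and P2ry13, the median being −0.07 against −0.01 over all genes. Without adjustment, 1 member (Cx3cr1, −0.14) and 575 genes were under 0.05. The difference of this contrast between the genotypes was called for none of the 9 (0.0101% of 9869 genes were called) and was under an unadjusted 0.05 in edgeR for none of them and for 402 genes. WT nuclei with 1 to 2 numbered 33, 69 and 59, so a moderate difference would not have been seen.

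Restricted to nuclei with no interferon UMI, the genotype difference of Siglech remained. Here R241E stood at 1126 and 1153 CPM (338 and 248 nuclei) and WT at 1408, 1418 and 1424 CPM (885, 1394 and 1383 nuclei), a log2 fold change of −0.35 (SE 0.10, 95% interval −0.55 to −0.15, edgeR adjusted p = 0.0354). It was the 1 member called lower, where 5.14% of 12065 genes were called, 1.72% lower and 3.42% higher. The call was lost without R241E replicate 1, R241E replicate 2, WT replicate 1 or WT replicate 2, with values of −0.34, −0.37, −0.35 and −0.34, and kept without WT replicate 3. Gpr34 was at 691 and 874 CPM in R241E and 867, 855 and 1049 CPM in WT, so that the genotypes overlapped (−0.28, 95% interval −0.53 to −0.03, edgeR adjusted p = 0.215). Tmem119 was at 136 and 153 CPM in R241E and 109.9, 104 and 115 CPM in WT (0.36, 95% interval 0.08 to 0.64, edgeR adjusted p = 0.153). The remaining 6 genes lay between −0.34 for P2ry13 and 0.33 for Olfml3, with edgeR adjusted p of 0.324 to 0.903. These R241E nuclei also differ from the WT nuclei in cluster makeup, and the 3 genes by which they were chosen can be missed in a shallow nucleus.

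**Figure D5:**
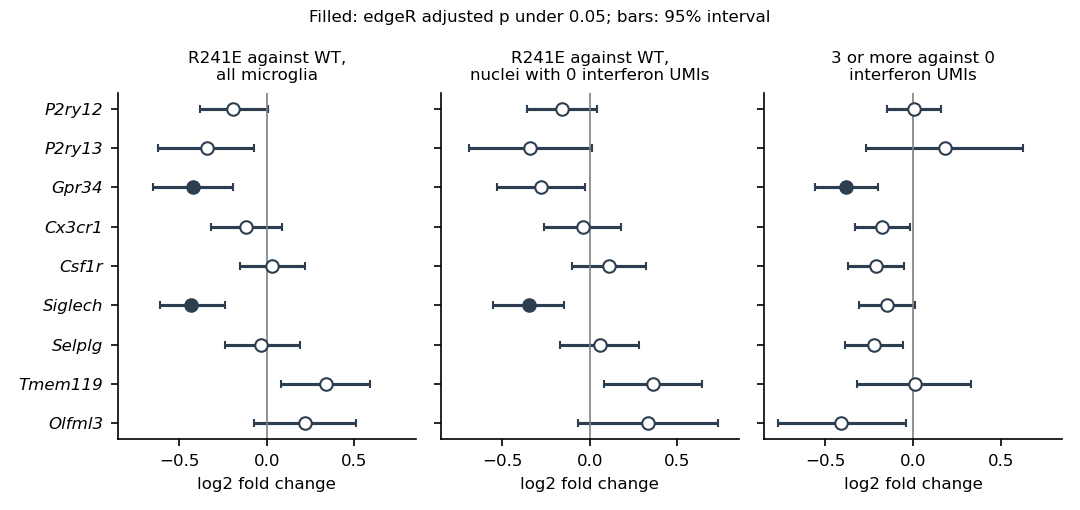
Log2 fold change of each of the 9 genes for R241E against WT in all microglia, for R241E against WT in microglia with 0 interferon UMIs, and for 3 or more against 0 interferon UMIs, with 95% intervals as bars and filled points for an edgeR adjusted p under 0.05. Siglech is called in the first and the second panel, Gpr34 in the first and the third.

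Border-associated macrophages, which the driver is also said to reach, allowed a weaker comparison with 44 to 106 nuclei per library. Of the 9 genes, 6 passed the filter on low counts and none was called, where 0.987% of 3950 genes were (0.861% higher and 0.127% lower). By unadjusted p in edgeR none of the 6 and 326 genes were under 0.05. Siglech was at 305 and 236 CPM in R241E and 477, 263 and 397 CPM in WT (log2 fold change −0.42, 95% interval −0.91 to 0.07, edgeR adjusted p = 0.721), and Gpr34 was at 162 and 220.2 CPM and 229, 219 and 242 CPM (−0.31, −0.84 to 0.21, edgeR adjusted p = 0.852). The difference between macrophages and microglia in the genotype contrast was called for none of the 9 in edgeR (0.760% of 10921 genes were called, 0.247% higher and 0.513% lower in macrophages), nor was any of them under 0.05 without adjustment, against 721 of all genes. With no Tmem119 UMI in macrophages, its value there is no measurement.

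Around the 9 genes, the 36 other genes of the study's homeostatic microglia list moved in both directions. All 36 were tested, 3 were called higher and 4 lower in R241E, and their median log2 fold change was −0.03, where 6.08% of all genes tested were called higher and 3.24% lower and the median was −0.0041. Med12l is among them, and Sall1 stands in this list and in the next. The list had been used by the study to score these same nuclei and is not independent evidence. The lower genes were Lrba, which takes part in vesicle trafficking (249 and 254 CPM in R241E, 393, 376 and 352 CPM in WT, log2 fold change −0.59, edgeR adjusted p = 9.10e-04), the transcription factor Maf (668 and 687, against 818, 897 and 895 CPM, −0.38, edgeR adjusted p = 0.0132), Srgap2 (−0.34, edgeR adjusted p = 0.0315) and Csmd3 (−0.32, edgeR adjusted p = 0.0319). The higher genes were Cd81, a tetraspanin (294 and 452, against 149, 195 and 239 CPM, 0.90, edgeR adjusted p = 0.00268), Tlr3, a sensor of double-stranded RNA (123 and 125, against 72.4, 81.2 and 93.1 CPM, 0.57, edgeR adjusted p = 0.00512), and Marcks (0.34, edgeR adjusted p = 0.046). In the contrast of 3 or more against 0 interferon UMIs, 4 of the 36 were called lower, among them Cst3, which encodes cystatin C (−0.37, edgeR adjusted p = 1.05e-05), and 1, Lpcat2, was called higher (0.32, edgeR adjusted p = 0.00514), where 0.615% of all genes tested were called lower and 2.70% higher. In nuclei with 0 interferon UMIs 1 of the 36 was called higher and 2 were called lower, where 3.42% of all genes tested were called higher and 1.72% lower.

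A list of 26 ligands, adapters, enzymes and regulators of the 9 proteins was read in the same way. In microglia 21 were tested, 3 were called higher and 1 lower, with a median log2 fold change of −0.13, beside 6.08% higher, 3.24% lower and a median of −0.0041 over all genes tested. Csf1, a ligand of CSF1R, rose from 6.87, 6.46 and 7.51 CPM in WT to 24.2 and 12.4 CPM in R241E (1.48, SE 0.29, edgeR adjusted p = 0.00311), from 17 to 77 UMIs in each library. Tyrobp, which encodes the adapter of Siglec-H, rose from 131, 165 and 226 CPM in WT to 226 and 375 CPM in R241E (0.74, SE 0.20, edgeR adjusted p = 0.0257), the opposite direction to Siglech, and the highest WT library lay just below the lowest R241E library. Nrros, whose protein presents TGF-beta at the microglial surface, fell from 305, 276 and 282 CPM to 246 and 197 CPM (−0.38, edgeR adjusted p = 0.0434). The ligands Il34, Cx3cl1, Selp, Sele and Bmp4 had 0 to 12 UMIs in the microglia of any library and were not tested. Between 3 or more and 0 interferon UMIs, Tyrobp was called lower (−0.45, edgeR adjusted p = 0.0207), alone of the 19 tested (0.615% of all genes tested were called lower). In nuclei with 0 interferon UMIs, 20 were tested, and 2 were called higher and 1 lower, beside 3.42% higher and 1.72% lower over all genes tested. Tyrobp was among the higher ones (0.83, edgeR adjusted p = 0.0244), and Nrros was the lower one (−0.52, edgeR adjusted p = 0.0159).

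Across the 11 classes of nuclei, the genes whose profile was most like the mean profile of the 9 were Fcrl1 (Pearson r = 0.977), Fam167b (0.973), Fgfr1op (0.968), Ppcdc (0.964) and Gm43821 (0.958), out of 7336 genes with at least 20 CPM in microglia. The points share libraries and depth, and the values are a description. Of these 5, Fcrl1 (log2 fold change −0.95, edgeR adjusted p = 0.00239) and Gm43821 (−0.74, edgeR adjusted p = 0.00143) were called lower in R241E microglia, where 3.24% of all genes tested were. Fam167b (−0.06), Fgfr1op (−0.07) and Ppcdc (−0.16) were not called.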

How the data were processed

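Single-nucleus libraries of 5 mice were read from the deposited count matrices. Per the labels, the methods and the file headers, the authors had sorted nuclei, prepared 10x Genomics 3′ v3.1 libraries and counted UMIs with Cell Ranger 7.0.0 on mm10, so that the deposited values are whole-number UMI counts per gene and nucleus, not normalized. The study integrated the nuclei with Seurat and tested them as single nuclei, whereas here the UMIs were summed per mouse, and mice were the replicates. The 9 genes and all lists were chosen with earlier results of these data known.

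Of 9748 nuclei, 9505 with 200 to 4500 genes, at most 10000 UMIs and at most 5% mitochondrial UMIs were kept, the upper limits also serving against doublets. Nuclei were clustered with scanpy 1.11.5 (3000 variable genes, 30 components, 20 neighbours, Leiden resolution 1) without the 9 genes. A cluster was named from at least 3 markers detected in 10% of its nuclei, and class names rest on this rebuilt clustering rather than on an annotation by the authors.

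Summed counts (sums of 10 or more nuclei) were tested over all genes with the quasi-likelihood test of edgeR 4.0.16 in R 4.3.3, with TMM normalization, the filterByExpr filter and Benjamini-Hochberg adjustment over all genes tested, called at 0.05. The interferon contrasts had the library as a block. Shares of nuclei with a UMI were compared at 1000 UMIs per nucleus with a two-sided exact permutation test over libraries. Poisson and exact binomial intervals are at 95% and cover counting error only, and a count of 0 was given an upper limit of 3 UMIs. On counts simulated for 12723 genes with 200 changed genes, the genotype test recovered 76.5% of them with 11 false calls. For the contrast of 3 or more against 0 interferon UMIs it recovered 51% with 4 false calls among 10075 genes, and in macrophages 41.5% with 6 among 3950. The raised genes of these simulations had median log2 fold changes of 1.01, 1.02 and 0.998, in the same order. The shares recovered are therefore no measure for smaller changes, such as the −0.43 of Siglech between the genotypes in microglia. A member that was not called is not shown to be unchanged. Library totals were 4183709 to 10130667 UMIs.

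Named genes were the 9 members, the called genes of the 36 other genes of the study's homeostatic list and of 26 partner genes, and the 5 genes most like the mean class profile of the members (Pearson r of log2(CPM + 1)). Some genes of these lists are counted but not reported here by name. Alternatives were DESeq2 1.42.0 size factors and Wald test, limma 3.58.1 (voom), no TMM, no filter, each library left out, a replicate block, thinning, a depth window, lifted limits, 156 nuclei with top Scrublet scores left out, clustering with the 9 genes, and, chosen after seeing the data, leaving out the cluster led by C1qb. Genotype contrasts in nuclei with 3 or more interferon UMIs, and the genotype difference of that contrast, were planned but not fitted, because each WT library had 8 such nuclei and sums of under 10 were left out by choice. The difference of the 1 to 2 against 0 contrast took its place. Labels on every sample also mention H151 and DMSO in aged mice, which were assigned to no library here.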

Additional observations from a re-analysis of the deposited data

How the results depend on the processing

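With 2 R241E mice, each result leans on both. In the genotype contrast of microglia, leaving out libraries gave 535 to 1546 called genes, 0 to 2 members called lower and 0 to 1 higher, and Csf1r ran from −0.03 to 0.09 and Selplg from −0.18 to 0.11. The low counts came without R241E replicate 1 (535 genes, no member lower) and without WT replicate 2 (770 genes). Where R241E kept 1 library, that library was taken to vary like the others. Thinning to 1000 UMIs left 714 called genes and put Selplg at 0.04, and leaving out the cluster led by C1qb put Csf1r at −0.08 and Olfml3 at −0.15. Siglech and Gpr34 kept their direction under all alternatives run, and their calls under all but the one without R241E replicate 1.

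Between 3 or more and 0 interferon UMIs, the values of P2ry12 and Tmem119 were near 0 and changed sign: −0.02 and −0.01 without the filter, −0.02 and −0.02 without TMM, −0.04 and −0.26 after thinning, −0.01 and −0.03 at 2000 to 4000 UMIs, −0.0042 and −0.0044 with the 9 genes in the clustering, and −0.02 and −0.02 with the R241E libraries only. P2ry13 changed to −0.01 after thinning and −0.28 at 2000 to 4000 UMIs. Thinning and the depth window each left 200 called genes, the window with 3 members called lower, and thinning called Cx3cr1 lower (−0.73). The share of all genes called lower is not given for either setting. Without single libraries the called genes ran from 143 (without R241E replicate 1; 163 without R241E replicate 2) to 337, members called lower from 0 to 1. P2ry12 then ran from −0.07 to 0.08, P2ry13 from −0.12 to 0.72 and Tmem119 from −0.05 to 0.11, with the calls of Gpr34 lost without R241E replicate 2.

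For 1 to 2 against 0, called genes numbered 19 after thinning, 7 at 2000 to 4000 UMIs, 7 with the R241E libraries only, 10 with the WT libraries only and 11 to 29 without single libraries (11 without R241E replicate 2). P2ry13 changed to 0.20 after thinning and 0.05 with WT only, and Tmem119 ran from −0.13 to 0.07 without single libraries. The genotype difference of that contrast gave 2 called genes with DESeq2 size factors, 0 without the filter, 5 after thinning and 0 to 4 without single libraries, with no member among them under any of these settings.

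In nuclei with 0 interferon UMIs, thinning left 396 called genes, and leaving out libraries gave 170 (without R241E replicate 1; 261 without R241E replicate 2 and 401 without WT replicate 2) to 859 called genes and 0 to 1 members called lower. Cx3cr1 then ran from −0.20 to 0.10, Selplg from −0.09 to 0.19 and Olfml3 from −0.13 to 0.76. In macrophages 70 genes were called without the filter and 6 to 51 without single libraries (21, 6 and 20 without R241E replicate 1, WT replicate 2 and WT replicate 3), Selplg ran from −0.96 to 0.46 and Csf1r from −0.14 to 0.33. For the difference from microglia, 33 to 72 genes were called (33 without R241E replicate 1, 54 without WT replicate 1). The share of nuclei with a UMI turned to 1.67 points for Csf1r and 1.94 for Selplg without thinning, and without single libraries ran from −1.44 to 1.1 points for Csf1r, −3.86 to 2.6 for Selplg and −0.194 to 2.4 for Tmem119. The cause of these changes was not tested. The alternatives planned for genotype contrasts in nuclei with 3 or more interferon UMIs were not run, like those contrasts themselves.

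The mouse numbers of the titles did not pair the samples (correlation of deviations 0.101 for mouse 1 and −0.0174 for mouse 2). With the number as a replicate block, WT replicate 3 has no partner and adds nothing to the genotype estimate. Few degrees of freedom then remain for the spread. In this fit 2085 genes were called in the genotype contrast. P2ry12 (−0.22) was called lower beside Siglech and Gpr34, and 2 members, Tmem119 (0.36) and Olfml3 (0.32), higher. The shares of all genes called in each direction are not given for this fit, so these calls stand without a background. In nuclei with 0 interferon UMIs the block called 1148 genes. In macrophages the block called no member.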

Other observations

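Some values of the 9 genes belong to no comparison above. In the 24 WT nuclei with 3 or more interferon UMIs, pooled from 3 mice, Siglech stood at 1285 CPM (95% Poisson interval 1036 to 1576, from 92 UMIs), Selplg at 643 CPM (470.4 to 857), Csf1r at 1187 CPM (948 to 1468) and P2ry12 at 1117 CPM (886 to 1391). The pooled R241E nuclei with 3 or more held 976 CPM of Siglech (928 to 1027), 768 CPM of Selplg (725 to 813), 961 CPM of Csf1r (913 to 1011) and 1248 CPM of P2ry12 (1193 to 1305). No test was run on these sums, since each WT mouse gave 8 nuclei and sums of under 10 were not used.

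Olfml3 in fibroblasts came from 47 UMIs beside 64 of P2ry12, or 73.4 per 100 (49.3 to 109), against 7.87 per 100 in microglia. Selplg in lymphocytes came from 262 UMIs beside 8 of P2ry12. These ratios are pooled over libraries.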
